A study of Mus musculus with 5 samples.

Results

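The 33 genes described here were 15 enzymes and regulators of glycolysis (called glycolytic enzymes) and 18 other genes of the response to low oxygen (called other hypoxia genes). They were taken as a list of symbols from 32285 features in the T cell libraries and 54987 in the whole-tumor libraries. All of them were listed in both. Levels were read in 7 groups of cells gated by marker transcripts, namely CD8 T cells with or without a transcript of Havcr2 (the inhibitory receptor TIM-3), CD4 T cells, neutrophils, macrophages, fibroblasts and cancer cells. The cells came from 4T1-Thy1.1 tumors, a mouse mammary carcinoma line carrying a surface tag, implanted into mammary fat of BALB/c mice aged 12 weeks. Mice were given doxorubicin (DOX), a DNA-damaging chemotherapy, by vein in 3 doses of 5 mg/kg with 3 days between doses, or saline. There were 5 droplet single-cell libraries, 1 in each group: whole tumor from a saline control, from a DOX-sensitive and from a DOX-resistant tumor, and T cells from DOX-sensitive and from DOX-resistant tumors. Each T cell library held cells of 3 tumors, combined after magnetic beads had removed most other cells, so the other gates of those libraries hold cells that the beads left behind. For the whole-tumor library titled resistant, another label field named a sensitive tumor, and it is called resistant-labelled below.

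Glycolysis splits glucose to pyruvate in the cytosol, and lactate dehydrogenase turns pyruvate to lactate so that the pathway can run without mitochondria. When oxygen falls, prolyl hydroxylases stop marking hypoxia-inducible factor (HIF) for destruction, and HIF binds short response elements near genes for glucose uptake, glycolysis, lactate export, angiogenesis, matrix synthesis and pH control. Neutrophils rely largely on glycolysis, and T cells raise it when activated. Solid tumors often hold poorly perfused zones in which cancer cells and stroma turn the HIF program on.

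The libraries differed in depth and in cells. The deposited matrices summed to between 537293 UMIs (unique molecular identifiers, 1 per captured transcript) in the sensitive whole-tumor library and 35908799 in the T cell library from resistant tumors. After filtering 263 to 3448 cells a library were kept, of which 72.1% to 85.1% fell in a gate. Each gate was led by its own markers: the 12 cancer markers summed to 8467 (resistant) and 8589 (sensitive) counts scaled to a library gate of 1e6 UMIs (CPM) in the cancer gates of the T cell libraries, and to at most 243 CPM in any other gate there. The T cell libraries had at least 52 cells in every gate, with 1193 Havcr2-negative CD8 cells in the resistant and 1049 in the sensitive library. Of the whole-tumor libraries, at least 20 cells were found in the neutrophil gate of all 3, the cancer gate of control (22 cells) and resistant-labelled (34 cells), and the macrophage gate of resistant-labelled (34 cells). At most 31 barcodes were shared between 2 libraries. The mitochondrial limit removed 33.2% of barcodes with enough genes in the resistant T cell library and 3.34% in the sensitive one, and no mitochondrial UMIs were recorded in the whole-tumor libraries. Feature lists and processing versions also differed between the T cell and whole-tumor libraries, and some members differed widely: in neutrophils Gapdh (the dehydrogenase step of glycolysis) reached 375 CPM in the resistant T cell library against 2750.0 CPM in the resistant-labelled whole-tumor library. Aldoa (aldolase) reached 1766 and 1491 CPM in the same pair. The cause of the Gapdh difference was not tested. Eno1 (enolase) has a near-identical copy, Eno1b, which held 140 CPM beside 124 CPM of Eno1 in neutrophils of the resistant T cell library. Whether counting split reads between them was not tested, and the Eno1 level is uncertain. Library was therefore a term in the tests between gates, and the alternative without that term set levels of whole-tumor against T cell libraries.

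To show what the members share in sequence, the promoters (250 bases before to 50 after each gene start, RefSeq, build GRCm38.p6) were searched for ACGTG or GCGTG, the core letters that HIF binds, on both strands, with overlapping matches counted separately. Of the 33 members 30 had a promoter in the table (not Slc2a3, Bnip3l and Ndrg1), and 28 of these (93.3%) held the letters, against 46.7% of all 27025 genes. The share was 13 of 15 among glycolytic enzymes and 15 of 15 among other hypoxia genes. By window, 27.5% of the 40 member promoters held at least 3 matches, against 8.99% of all promoters. These are matches of letters in a window and were not tested for binding. The members were listed as genes of glycolysis and the response to low oxygen, so a larger share could come from how the list was made. All genes were not matched to the members for base composition. The promoters of 5 members that the results below turn on are shown 5′ to 3′ on the strand of the gene, with the matches in capitals: the enzyme with most matches (Ldha), the mitophagy receptor that stood among the highest of the CD8 split (Bnip3), and the genes that set apart cancer cells (Car9), fibroblasts (P4ha2) and neutrophils (Slc16a3).
Ldha (chr7:46845554-46845853, plus strand, 7 matches): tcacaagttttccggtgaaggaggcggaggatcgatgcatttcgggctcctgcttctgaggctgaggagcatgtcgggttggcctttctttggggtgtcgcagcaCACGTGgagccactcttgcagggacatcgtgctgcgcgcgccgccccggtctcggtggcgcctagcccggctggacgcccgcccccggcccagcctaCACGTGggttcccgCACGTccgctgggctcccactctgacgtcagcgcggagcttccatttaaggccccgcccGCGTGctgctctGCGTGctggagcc
Bnip3 (chr7:138909457-138909756, minus strand, 5 matches): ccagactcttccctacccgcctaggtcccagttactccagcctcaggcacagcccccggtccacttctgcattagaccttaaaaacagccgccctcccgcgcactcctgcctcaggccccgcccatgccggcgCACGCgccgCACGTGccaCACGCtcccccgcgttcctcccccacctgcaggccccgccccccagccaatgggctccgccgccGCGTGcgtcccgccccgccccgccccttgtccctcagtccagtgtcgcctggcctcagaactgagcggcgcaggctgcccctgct
Car9 (chr4:43506776-43507075, plus strand, 1 match): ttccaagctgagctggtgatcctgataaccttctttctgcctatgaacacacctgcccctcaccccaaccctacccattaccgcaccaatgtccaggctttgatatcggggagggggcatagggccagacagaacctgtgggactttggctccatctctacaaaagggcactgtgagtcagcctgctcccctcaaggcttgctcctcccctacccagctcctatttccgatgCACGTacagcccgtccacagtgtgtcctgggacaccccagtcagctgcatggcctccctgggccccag
P4ha2 (chr11:54100674-54100973, plus strand, 4 matches): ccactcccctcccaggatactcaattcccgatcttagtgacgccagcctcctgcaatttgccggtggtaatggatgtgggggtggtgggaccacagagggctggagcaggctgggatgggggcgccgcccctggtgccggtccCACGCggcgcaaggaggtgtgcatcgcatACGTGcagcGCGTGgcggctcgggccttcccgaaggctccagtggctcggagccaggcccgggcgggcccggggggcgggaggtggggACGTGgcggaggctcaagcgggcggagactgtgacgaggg
Slc16a3 (chr11:120948817-120949116, plus strand, 2 matches): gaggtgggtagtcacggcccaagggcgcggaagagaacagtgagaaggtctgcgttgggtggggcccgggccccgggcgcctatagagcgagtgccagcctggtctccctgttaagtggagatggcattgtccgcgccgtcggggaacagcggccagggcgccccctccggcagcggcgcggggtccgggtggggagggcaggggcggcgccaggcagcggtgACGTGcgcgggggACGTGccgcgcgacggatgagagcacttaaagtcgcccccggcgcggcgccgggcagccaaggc
The Ldha and Bnip3 windows hold CACGTG, a palindrome that matches on both strands and so counts as a pair.

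Summed over the 15 glycolytic enzymes, neutrophils had the highest level and fibroblasts the lowest. In the resistant T cell library the sum was 10291 CPM in neutrophils, 7406 in macrophages, 5966 in Havcr2-positive CD8 cells, 4751 in CD4 cells, 4519.8 in cancer cells, 4201 in Havcr2-negative CD8 cells and 3015 in fibroblasts. In the sensitive T cell library it was 9035 CPM in neutrophils, 7592 in macrophages, 7071 in cancer cells, 7035 in Havcr2-positive CD8 cells, 6681 in CD4 cells, 5148 in Havcr2-negative CD8 cells and 3688 in fibroblasts. The order was the same at both ends in these libraries, and cancer cells held the fifth place in the resistant and the third in the sensitive library. Their counting interval overlapped that of CD4 cells in the resistant library (4437 to 4604 against 4453 to 5064) and that of Havcr2-positive CD8 cells in the sensitive one (6963 to 7180 against 6902 to 7170). Spread within a gate was wide: among cancer cells of the sensitive library with at least 1000 UMIs the glycolytic enzymes took a median of 51.6 UMIs per 10000, with 21.6 at the 10th and 122 at the 90th percentile. In the resistant library the same figures were 31.7, 20.2 and 87.8. In whole tumor, neutrophils summed to 9559.9 CPM in control, 12653 in resistant-labelled and 12361 in sensitive, and cancer cells to 6542 in control and 8121 in resistant-labelled.

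**Figure D1:**
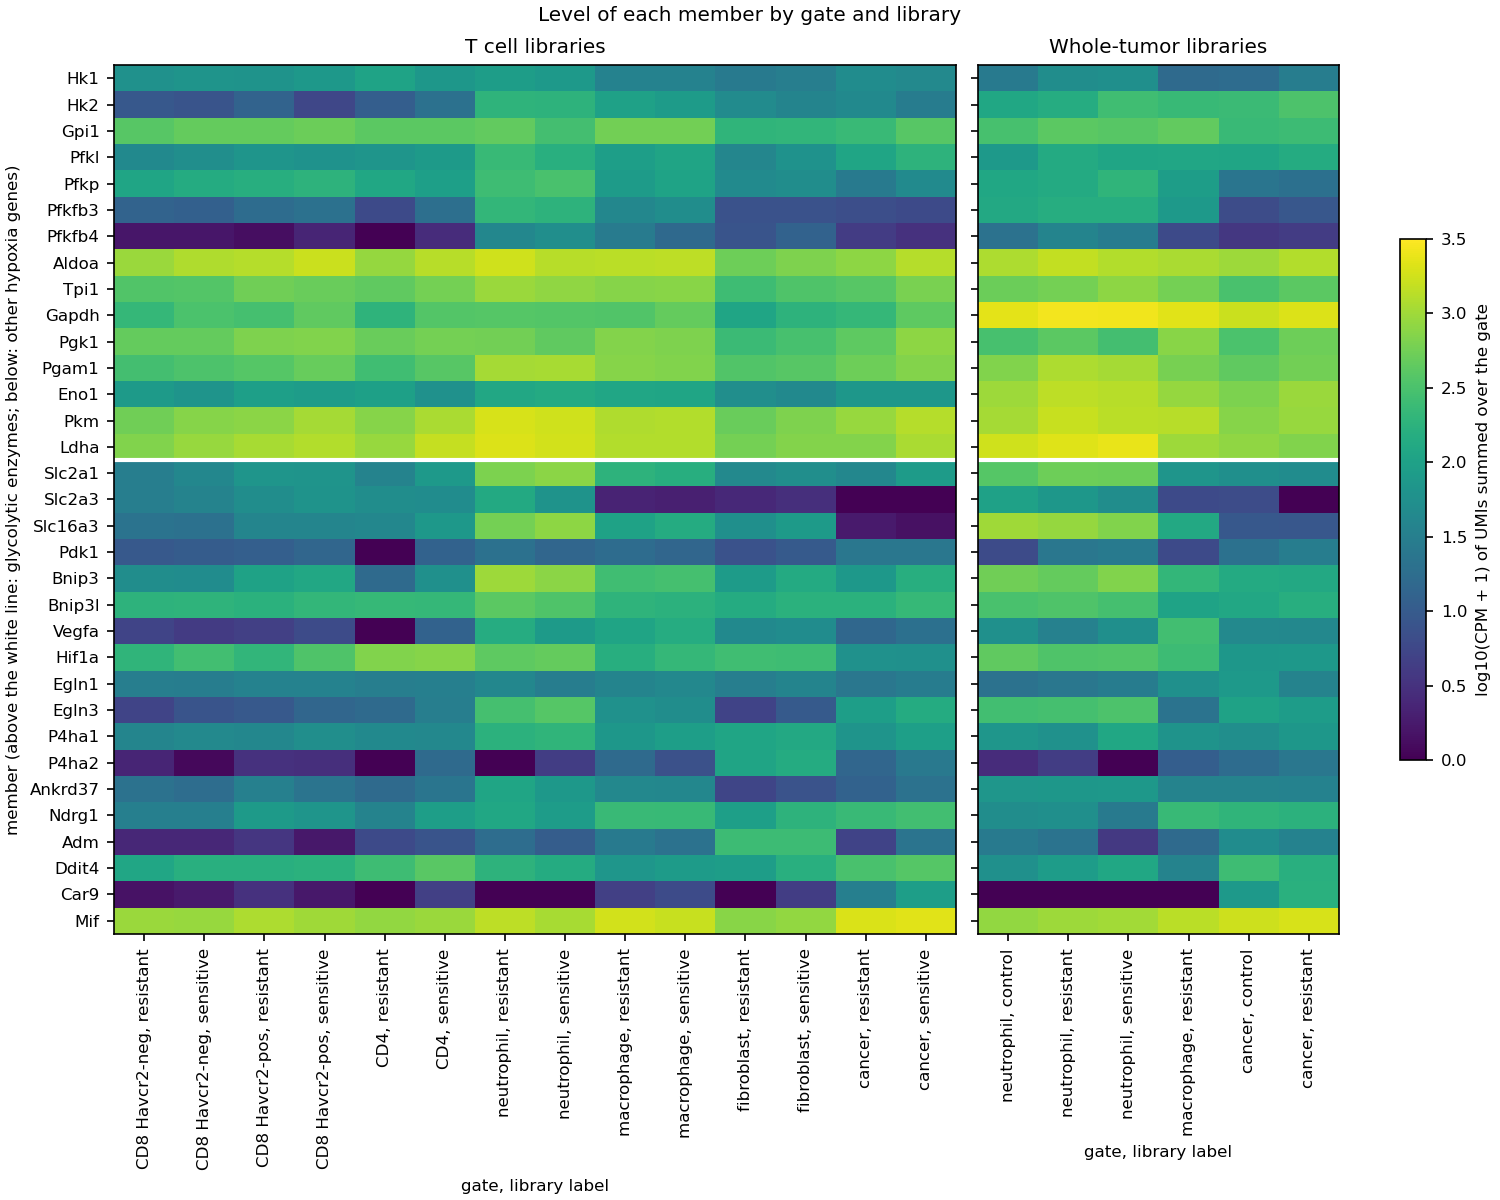
Level of each of the 33 members (rows) by gate and library (columns), as log10 of CPM plus 1 of the UMIs summed over the gate, with the T cell libraries on the left and the whole-tumor libraries on the right. Slc2a1, Slc16a3 and Bnip3 are brightest in neutrophils, Adm and P4ha2 in fibroblasts and Car9 in cancer cells, while Gapdh and Eno1 differ between the panels, a difference whose cause was not tested.

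Among enzymes of the early, regulated steps, the share of each family member differed between gates. Hk1 and Hk2 are hexokinases, which trap glucose in the cell. Hk2 made up 12.3% and 10.1% of the pair's UMIs in Havcr2-negative CD8 cells (resistant and sensitive T cell library), 47.7% and 39.3% in cancer cells, 64.4% and 54.9% in fibroblasts, 74.1% and 70.4% in macrophages and 68.4% and 70.5% in neutrophils. Lymphocytes thus carried mainly Hk1 transcripts of this pair and myeloid cells mainly Hk2, in both libraries, and no library of one kind overlapped one of the other. In whole tumor the Hk2 share of cancer cells was much larger, at 93.5% in control and 91.7% in resistant-labelled. Macrophages of resistant-labelled whole tumor stood at 93.6%. The place of cancer cells in this order thus differed between the sets of libraries, and the cause was not tested. Pfkl and Pfkp are liver-type and platelet-type phosphofructokinase, the committing step. Pfkp made up 71.3% and 72.8% of its pair in Havcr2-negative CD8 cells but 19.1% and 20.2% in cancer cells, with neutrophils at 53.0% and 65.7%. Pfkfb3 and Pfkfb4 make and degrade the activator of phosphofructokinase. Pfkfb3 reached 208 and 185 CPM in neutrophils, 40.6 and 51.8 in macrophages and at most 19.2 CPM in any other gate of the T cell libraries. Whole-tumor neutrophils held 128, 148 and 149 CPM of Pfkfb3 in the order control, resistant-labelled and sensitive.

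**Figure D2:**
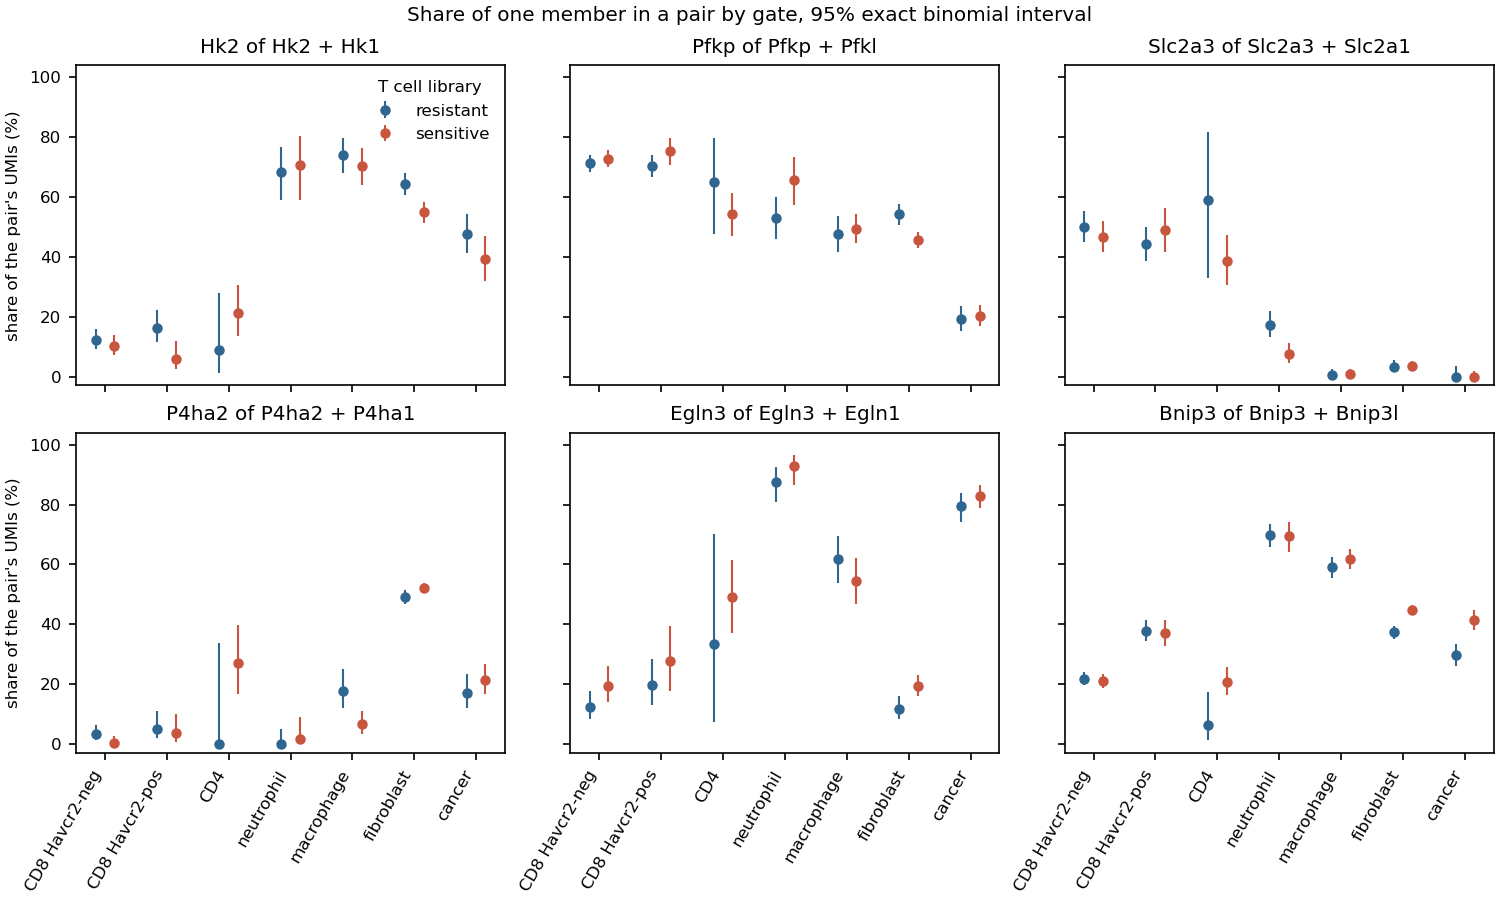
Share of one member in the UMIs of a pair of related genes, in percent, by gate in the resistant (blue) and sensitive (red) T cell library, with exact binomial 95% intervals that cover counting error. Hk2 and Bnip3 take larger shares in neutrophils and macrophages than in CD8 cells, Pfkp takes its smallest share in cancer cells, Slc2a3 takes 44.2% or more of its pair in CD8 cells and 0% in cancer cells, and P4ha2 takes its largest share in fibroblasts.

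The transporters of glucose and lactate differed between gates. Slc2a3, a high-affinity glucose transporter, stood at 30.3 and 35.5 CPM in Havcr2-negative CD8 cells, 50.3 and 49.6 in CD4 cells and 133 and 62.6 in neutrophils (resistant and sensitive T cell library), and at 1.92 CPM or less in macrophages and fibroblasts. In cancer cells it had 0 UMIs in both T cell libraries, where 3 counts would be 1.195 and 1.286 CPM. Slc2a1, the widely expressed glucose transporter, was present in every gate, from 30.3 CPM in Havcr2-negative CD8 cells to 642 and 781 CPM in neutrophils. Slc16a3, which exports lactate, reached 593 and 804 CPM in neutrophils and 0.797 and 0.429 CPM in cancer cells. Neutrophils of the whole-tumor libraries held 989, 887 and 678 CPM of Slc16a3 (control, resistant-labelled, sensitive), and their cancer cells 8.22 and 7.84 CPM (control, resistant-labelled). Both cancer-cell libraries of each set lay below every other gate measured there.

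Hif1a, the oxygen-regulated HIF subunit, was highest in CD4 cells (684 and 727 CPM in the resistant and sensitive T cell library) and lowest in cancer cells (57.8 and 56.6 CPM). Egln1 and Egln3 are the prolyl hydroxylases that mark HIF, and Egln3 is itself a HIF target. Egln1 varied little, between 23.1 and 42.3 CPM over all gates of the T cell libraries. Egln3 ranged from 4.03 CPM in fibroblasts of the resistant library to 379 CPM in neutrophils of the sensitive one, with cancer cells at 89.2 and 141 CPM. Thus Egln3 took 87.5% and 92.7% of the pair's UMIs in neutrophils, 79.4% and 83.0% in cancer cells and 11.8% and 19.4% in fibroblasts. Pdk1, which closes the entry of pyruvate to mitochondria, was low throughout, with at most 23.2 CPM in the T cell libraries. Bnip3 and Bnip3l are mitophagy receptors on the outer mitochondrial membrane. Bnip3 stood at 15.1 and 55.9 CPM in CD4 cells, 51.0 and 50.05 CPM in Havcr2-negative CD8 cells and 966 and 778 CPM in neutrophils. Bnip3l moved less, between 140 and 419 CPM over all gates of those libraries.

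Genes for secreted signals, matrix and pH differed from each other in the gate where they were highest. Adm (adrenomedullin, a vasodilator peptide) stood at 249.7 and 253 CPM in fibroblasts and at most 25.5 CPM in every other gate of the T cell libraries. P4ha2, a collagen prolyl hydroxylase subunit, stood at 111 and 142 CPM in fibroblasts and at most 25.3 CPM elsewhere in those libraries. Fibroblasts were thus the highest gate for both genes in both libraries. Car9, the cell-surface carbonic anhydrase, stood at 31.1 and 91.8 CPM in cancer cells, and at 76.7 and 166 CPM in those of control and resistant-labelled whole tumor. It was at most 5.28 CPM in any other gate and had 0 UMIs in neutrophils of all 5 libraries, where 3 counts would be 5.41 to 10.1 CPM. Vegfa, the main angiogenic factor, stood at 111 and 147 CPM in macrophages, 145 and 79.1 CPM in neutrophils, 44.5 and 49.6 CPM in fibroblasts and 13.5 and 18.9 CPM in cancer cells. In resistant-labelled whole tumor Vegfa reached 271 CPM in macrophages against 42.3 CPM in cancer cells. Ndrg1, a stress-induced gene, was highest in cancer cells (237 and 273 CPM) and macrophages (231 and 227 CPM). Mif, an inflammatory cytokine, was also highest in cancer cells, at 2028 and 2187 CPM.

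Differences between gates were tested with edgeR's quasi-likelihood test on UMIs summed per library and gate, with library as a term and Benjamini-Hochberg adjustment over 12455 genes. A call is an adjusted p under 0.05, and values are log2 fold changes ± SE. The 2 T cell libraries held every gate, so each contrast rests on few libraries.

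Neutrophils against macrophages asked how these myeloid cells differ, and 3 libraries held both gates. Of the 33 members 21 were higher in neutrophils (15.6% of all genes were) and 1 was lower (28.1% of all genes were). By list, 11 of 15 glycolytic enzymes and 10 of 18 other hypoxia genes rose. The medians were 0.95 for glycolytic enzymes and 1.35 for other hypoxia genes, against -0.65 for all genes, and without TMM scaling the split was 18 higher and 4 lower, and these medians were 0.46, 0.92 and -1.10. Of the transporters, Slc2a3 rose by a fitted 6.46 ± 0.53 (adjusted p = 3.2e-09), Slc16a3 by 2.93 ± 0.30 (8.2e-08) and Slc2a1 by 2.60 ± 0.27 (8.4e-08). Macrophages held only 2, 2 and 1 UMIs of Slc2a3 (resistant and sensitive T cell, resistant-labelled whole tumor), against 55, 19 and 21 in neutrophils. The size of the Slc2a3 change is therefore uncertain. The sensor Egln3 rose by 3.13 ± 0.25 (adjusted p = 2.1e-09), the glycolytic activator Pfkfb3 by 2.26 ± 0.22 (3.2e-08) and Bnip3 by 1.91 ± 0.30 (1.7e-05). The phosphofructokinases Pfkp (1.81 ± 0.22) and Pfkl (1.18 ± 0.24) and the hexokinase Hk1 (1.65 ± 0.24) rose. The hexokinase Hk2 was at 0.72 ± 0.45 and did not pass (adjusted p = 0.21). It was called higher without the filter on low counts, with at least 50 cells a sum and with a stricter gate. Gapdh, at 0.53 ± 0.24 (adjusted p = 0.080), was called higher with DESeq2 and without the filter. At the end of the pathway Ldha rose by 1.24 ± 0.24 (adjusted p = 0.00020) and Pkm, pyruvate kinase, by 0.95 ± 0.21 (0.00089). The other members called higher were Bnip3l, Pfkfb4, Hif1a, Ddit4, Ankrd37, P4ha1, Pgam1, Eno1, Aldoa and Tpi1, from 0.65 (Tpi1) to 1.70 (Bnip3l). Aldoa and Tpi1 were not called without TMM or without any 1 of the 3 libraries that held both gates, nor Aldoa with at least 50 cells a sum. Eno1 was not called without TMM, with at least 50 cells a sum, without the library term or without the resistant-labelled whole-tumor library, and Pfkfb4 was not called without the sensitive T cell library. With 1 library left out, 18 to 21 members were higher. Ndrg1 fell by 0.96 ± 0.28 (adjusted p = 0.0081) and was not called with a stricter gate or at least 50 cells a sum. Gpi1 (0.00 ± 0.23) and Pgk1 (-0.07 ± 0.24) did not pass. In contrast, 14 of 20 nuclear genes of oxidative phosphorylation fell (median -1.90), as did 9 of 10 cell cycle genes. Of 10 further glycolysis and lactate genes tested 1 rose and 4 fell, and of 29 further hypoxia pathway genes 9 rose and 2 fell.

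Cancer cells against fibroblasts asked how the tumor cells differ from their stroma, and 13 members were higher in cancer cells (20.7% of all genes were) and 9 were lower (28.2% were). Of the glycolytic enzymes 6 rose and 2 fell, and of the other hypoxia genes 7 rose and 7 fell. Without TMM scaling the split was 17 higher and 6 lower and the median of all genes moved from -0.10 to 0.12, and DESeq2 gave 16 and 7. Car9 rose by 4.99 ± 0.44 (adjusted p = 1.3e-08) and Egln3 by 3.91 ± 0.28 (1.1e-10). In the resistant library fibroblasts had 0 Car9 UMIs, so Car9 was at least 89.999-fold higher in cancer cells there. Ankrd37, a short ankyrin repeat protein induced by HIF, rose by 1.52 ± 0.34, Pdk1 by 1.43 ± 0.27, Pfkl by 1.40 ± 0.24, Ddit4 (an inhibitor of mTORC1) by 1.34 ± 0.26 and Mif by 1.21 ± 0.25. Smaller rises were called for Gapdh (0.87), Pgk1 (0.86), Ndrg1 (0.68), Aldoa (0.67), Pkm (0.64) and Hk1 (0.50). On the fibroblast side, Slc16a3 fell by 5.37 ± 0.46 (adjusted p = 1.7e-09), Adm by 4.39 ± 0.34 (3.9e-10), P4ha2 by 2.95 ± 0.29 (2.0e-08) and Hif1a by 2.36 ± 0.25 (4.0e-08). Pfkfb4 fell by 1.88 ± 0.43, Vegfa by 1.39 ± 0.37, P4ha1 by 0.75 ± 0.22 and Pfkp by 0.69 ± 0.22. The fitted change of Slc2a3 was -2.38 ± 0.93, but with 0 UMIs in cancer cells of both T cell libraries, against 13 and 23 UMIs in fibroblasts, the supported difference is at least 1.25-fold and 1.49-fold. All 10 cell cycle genes rose in cancer cells (median 2.33), of the oxidative phosphorylation genes 0 rose and 2 fell, and of 29 further hypoxia pathway genes 3 rose and 15 fell. Of 10 further glycolysis and lactate genes 2 rose and 5 fell. The counts rested on both T cell libraries: without the resistant one 9 of the 22 calls remained and without the sensitive one 11, all in the same direction. Those lost both times were Hk1, Pfkp, Aldoa, Gapdh, Pgk1, Pkm, Slc2a3, Vegfa, P4ha1 and Mif.

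Cancer cells against Havcr2-negative CD8 cells gave 17 members higher (26.2% of all genes were) and 7 lower (26.1% were). Among the other hypoxia genes 12 rose and 3 fell, and among the glycolytic enzymes 5 rose and 4 fell. The largest fitted rises were Car9 (6.32 ± 0.57, adjusted p = 1.4e-08), P4ha2 (4.32 ± 0.52, 3.2e-07), Egln3 (4.20 ± 0.30, 7.5e-11), Adm (3.10 ± 0.54, 4.8e-05), Hk2 (3.05 ± 0.57, 0.00010), Ndrg1 (2.91 ± 0.31, 3.6e-08) and Vegfa (2.36 ± 0.51, 0.00045). In the CD8 cells Car9 had 3 and 4 UMIs, P4ha2 8 and 1, and Adm 9 and 7 (resistant and sensitive library). The sizes of these 3 rises, and so their order, are uncertain. Pfkfb4 rose by 2.0, Pfkl by 1.52, Pdk1 by 1.28, Ddit4 by 1.27, Bnip3 by 1.25, Mif by 1.12, P4ha1 by 0.95, Pgam1 by 0.90, Slc2a1 by 0.79 and Pkm by 0.61. Slc2a3 was at least 25.4-fold and 27.6-fold higher in CD8 cells than in cancer cells of the resistant and sensitive library, with a fitted change of -6.48 ± 0.57 (adjusted p = 2.2e-09). Slc16a3 fell by 3.58 ± 0.49 in cancer cells, Hif1a by 2.07 ± 0.25, Pfkp by 1.95 ± 0.22, Pfkfb3 by 1.07 ± 0.31, Gpi1 by 0.65 ± 0.26 and Hk1 by 0.50 ± 0.18. As a measure of free RNA, Krt18, a keratin of the cancer cells, stood in Havcr2-negative CD8 cells of the sensitive library at 0.101% of its cancer-cell level, and Car9 at 0.890% with 4 UMIs. Without the resistant T cell library 14 of the 24 calls remained and without the sensitive one 13, all in the same direction, and Mif, Pkm, Slc2a1, Pdk1, Pgam1, Pfkfb3, Pfkfb4, Gpi1 and Hk1 were lost both times. In the further lists 8 of 29 hypoxia pathway genes rose and 6 fell, 4 of 10 glycolysis and lactate genes rose and 1 fell, 1 of 20 oxidative phosphorylation genes rose and 5 fell, and 1 of 10 cell cycle genes rose and 2 fell.

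**Figure D3:**
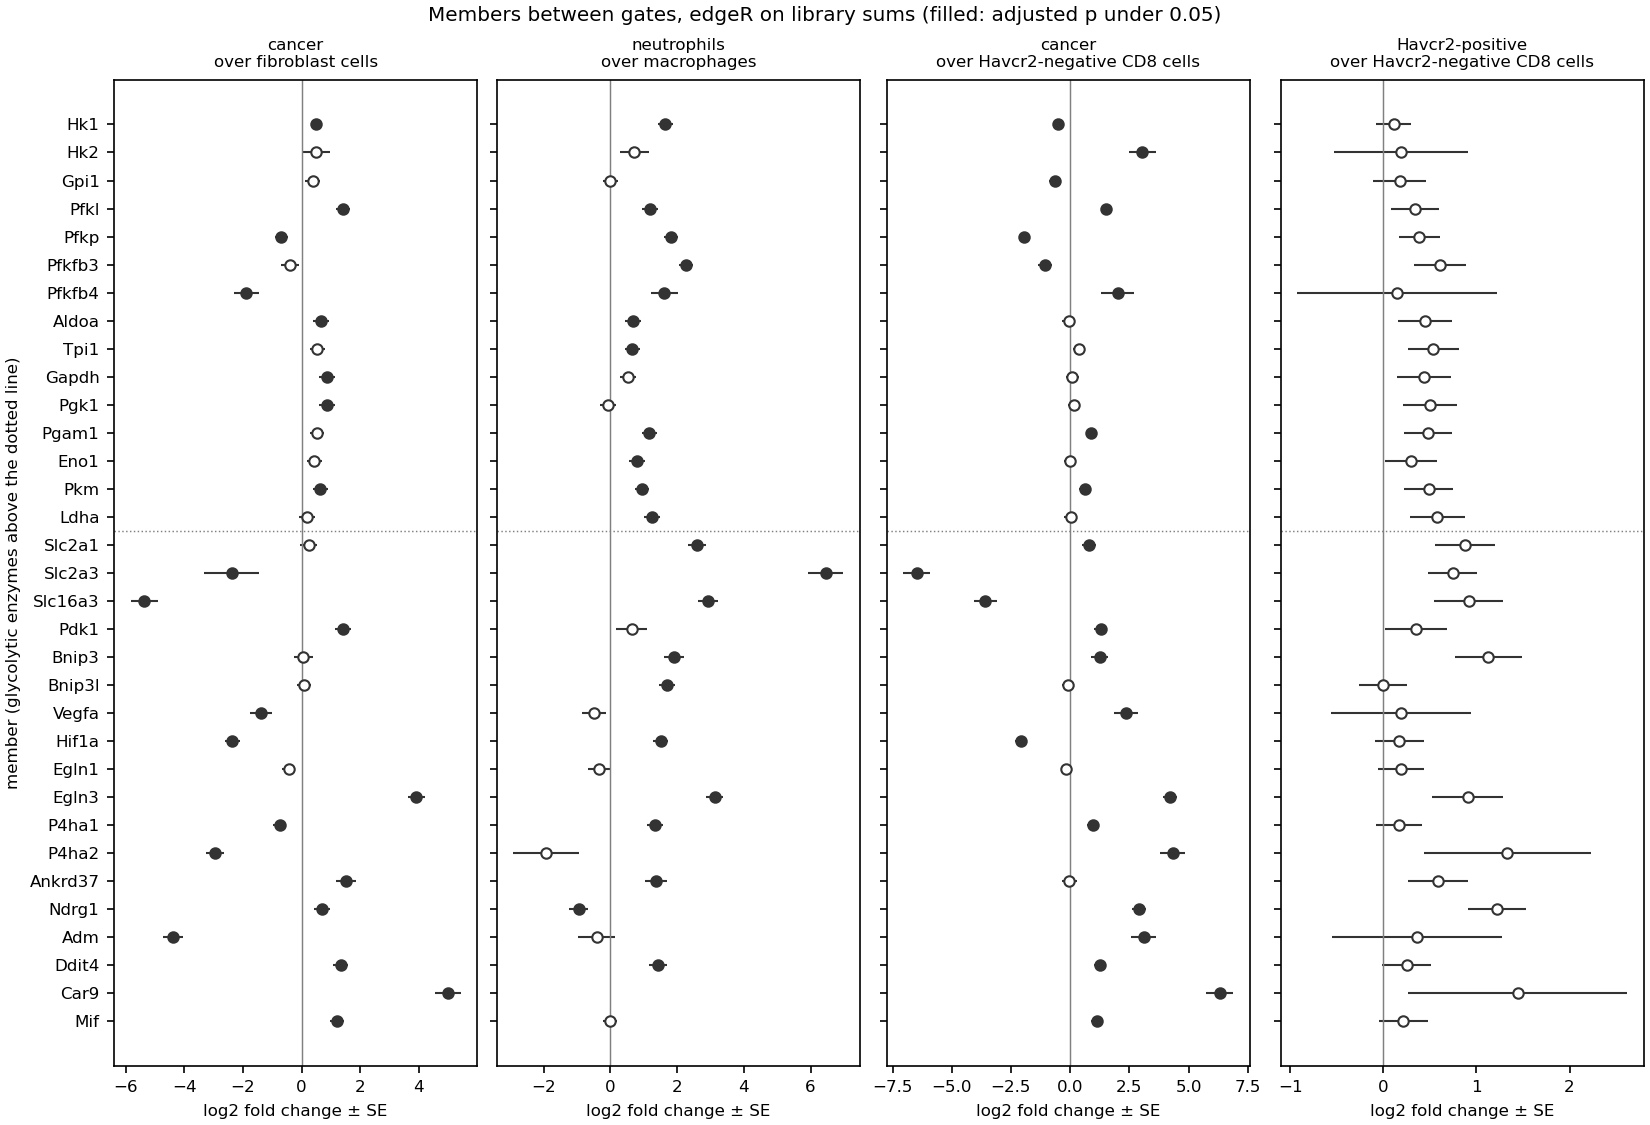
Log2 fold change ± SE of each member in the 4 contrasts between gates (edgeR on UMIs summed per library and gate), with filled circles for an adjusted p under 0.05 and glycolytic enzymes above the dotted line. Most members lie right of 0 in neutrophils against macrophages, members lie on both sides in the contrasts with cancer cells, and no circle is filled for the CD8 split. Car9 is left out of the neutrophil contrast because neutrophils had 0 UMIs.

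The split of CD8 cells by Havcr2 asked whether cells with this inhibitory receptor carried more of the program. No member was called in either direction (0 of 33 higher where 0.257% of all genes were called, and 0 lower where 0.0963% were), with edgeR and also with DESeq2. At an unadjusted p under 0.05 edgeR had 7 members higher (3.32% of all genes were) and 0 lower (2.53% were), and DESeq2 12 and 0 (2.96% and 1.73%). The edgeR count of 7 was 1 without the resistant T cell library, 1 without the sensitive one, 3 without the library term and 2 after thinning, but 12 with at least 50 cells a sum, 11 without TMM and 10 with a stricter gate. The fitted change was above 0 for 32 of 33 members, with medians of 0.44 for glycolytic enzymes and 0.47 for other hypoxia genes against -0.01 for all genes. Among members with at least 50 UMIs in each library, all 13 glycolytic enzymes and 12 of 13 other hypoxia genes had a ratio above 1 in both T cell libraries, the exception being Bnip3l. The highest fitted changes among these were those of Ndrg1, which stood at 79.5 against 31.2 CPM in the resistant and 66.2 against 31.5 CPM in the sensitive library (fitted change 1.22 ± 0.31, adjusted p = 0.10), and Bnip3, at 103 against 51.0 and 124 against 50.05 CPM (1.13 ± 0.36, adjusted p = 0.31). Both genes were thus about doubled or more in each library, yet neither passed the test over all genes. Without the filter on low counts these same genes, Ndrg1 and Bnip3, were called. The transporters Slc16a3 (0.92 ± 0.37), Slc2a1 (0.88 ± 0.32) and Slc2a3 (0.75 ± 0.26) and the sensor Egln3 (0.91 ± 0.38) also lay above 0, with adjusted p of 0.44 or more. Ldha stood at 1116 against 684 CPM and 1264 against 899.8 CPM. Havcr2-positive cells were deeper (median 6015.5 against 4343 UMIs in the resistant and 4577.5 against 3945 in the sensitive library), and more of them held a Mki67 or Top2a UMI (35.3% against 26.7%, and 25.6% against 19.7%). When Havcr2 was read after thinning each cell to 1000 UMIs the medians fell to 0.12 and 0.14, against -0.09 for all genes, with 24 of 33 members above 0. Thinning also changed which cells were counted as Havcr2-positive, leaving 86 of 348 in the resistant and 92 of 250 in the sensitive library and moving most others to the negative gate, and the parts of depth and membership in the fall were not told apart. Without cells that held a Mki67 or Top2a UMI they were 0.47 and 0.55. The 4 further lists gave 0 calls in either direction, with medians between 0.13 (oxidative phosphorylation) and 0.30 (cell cycle).

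**Figure D4:**
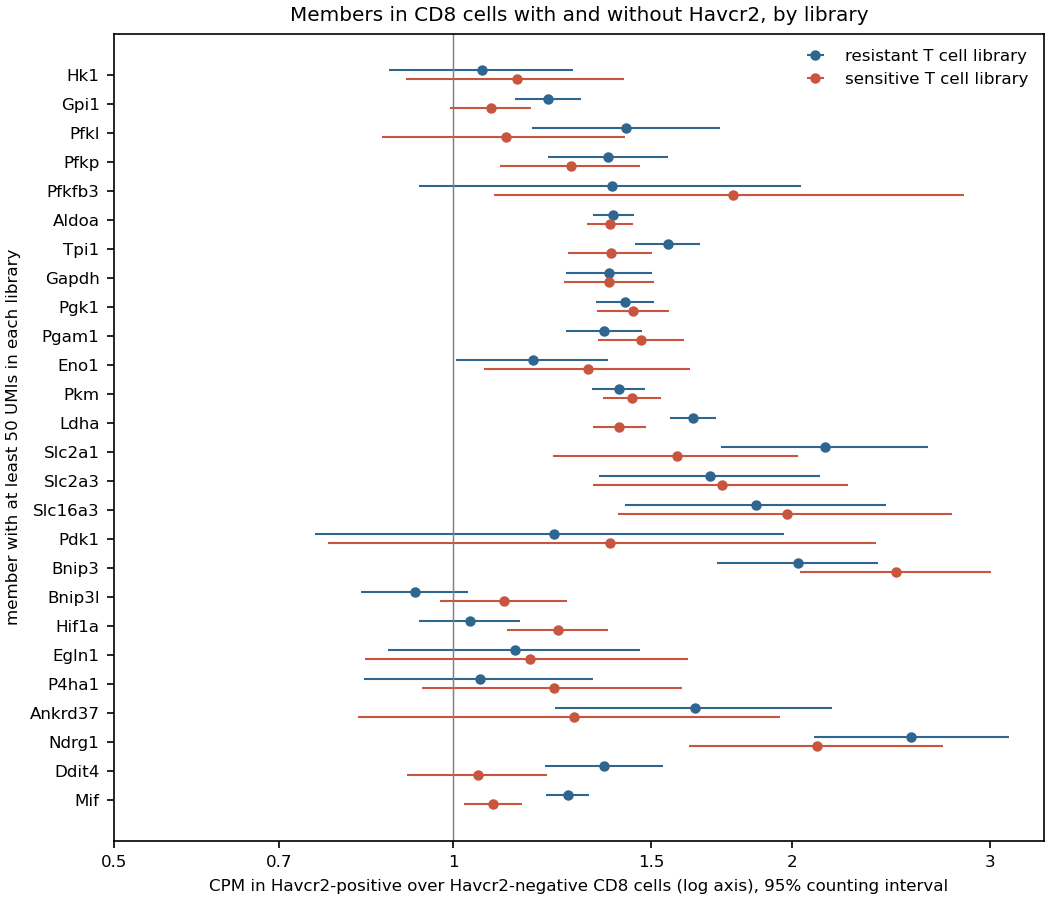
Ratio of CPM in Havcr2-positive over Havcr2-negative CD8 cells (log axis) for the 26 members with at least 50 UMIs in each library, in the resistant (blue) and sensitive (red) T cell library, with 95% intervals that cover counting error. All points but Bnip3l in the resistant library lie right of 1, and Bnip3 and Ndrg1 lie between 2.02 and 2.55 in both libraries.

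The sensitive and resistant T cell libraries were then compared gate by gate. With 1 library on each side there is no test: ratios of CPM have exact intervals that cover counting error alone, and a member is past the fold at 1.5-fold or more with an interval that leaves out 1, among genes with at least 50 UMIs. How far the difference between libraries reflects DOX response cannot be told apart from differences between pools or preparations. The median mitochondrial share was higher in every gate of the resistant library, for example 5.89% against 2.52% in Havcr2-negative CD8 cells and 4.74% against 3.49% in cancer cells, and its part in these ratios was not tested.

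Cancer cells differed most. Of 29 members with enough UMIs 15 were past the fold higher in the sensitive library (5.96% of all genes were) and 1 was lower (2.35% were), and the summed glycolytic enzymes were 1.56-fold higher (interval 1.53 to 1.60). The other hypoxia genes summed to 1.20-fold (1.16 to 1.24), and the median of all genes was 1.06. Of the glycolytic enzymes 8 were past the fold higher, while Eno1 stood at 70.8 against 69.3 CPM. Gapdh stood at 429 against 215 CPM (1.99-fold, 1.79 to 2.22), Pgk1 at 809 against 432 CPM (1.88-fold, 1.74 to 2.02) and Ldha at 1134 against 710.0 CPM (1.60-fold, 1.503 to 1.697). Aldoa (1.62), Tpi1 (1.59), Gpi1 (1.68), Pfkl (1.62) and Pfkp (1.73) were also past the fold higher, and Hk2 was lower, at 28.3 against 45.4 CPM (0.623-fold, 0.453 to 0.851), but was not past the fold with a stricter gate (0.854-fold). Among the other hypoxia genes, Car9 stood at 91.8 against 31.1 CPM (2.95-fold, 2.27 to 3.88), Bnip3 at 158 against 71.7 CPM (2.20-fold), Slc2a1 at 83.6 against 41.0 CPM (2.04-fold), P4ha2 at 25.3 against 13.1 CPM (1.92-fold), Ankrd37 at 20.2 against 11.6 CPM (1.74-fold) and Egln3 at 141 against 89.2 CPM (1.58-fold). Car9 was seen in 49 of 94 cancer cells of the sensitive and 33 of 118 of the resistant library, at median depths of 21192 and 21319.5 UMIs, and in 4 of 1049 and 3 of 1193 Havcr2-negative CD8 cells. Adm was 5.27-fold higher (2.64 to 11.7) but rested on 49 and 10 UMIs, of which a single cell gave 22.4% and 50%, and was 2.47-fold as a mean over cells. Counts of members past the fold higher ran from 12 to 16 over the alternatives. Cell cycle genes moved the same way, with 5 of 10 past the fold higher, and 41.5% of cancer cells in the sensitive against 34.7% in the resistant library held a Mki67 or Top2a UMI. Of 20 further hypoxia pathway genes with enough UMIs 5 were higher (Ero1l, Higd1a, Hmox1, Pdk3 and Plod1) and 1 was lower (Stc2), of 20 oxidative phosphorylation genes 1 was higher, and of 4 glycolysis and lactate genes 1 was.

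Fibroblasts gave 8 of 31 members past the fold higher in the sensitive library (6.97% of all genes were) and 0 lower (2.59% were). Egln3 was 2.20-fold higher at 8.86 against 4.03 CPM, Ndrg1 1.96-fold at 184 against 93.7 CPM, Ddit4 1.85-fold at 162 against 87.7 CPM and Bnip3 1.65-fold at 137 against 83.3 CPM. Pfkfb4 (1.68), Gapdh (1.61), Ankrd37 (1.57) and Pfkl (1.53) completed the set, while Adm stood at 253 and 249.7 CPM (1.02-fold). Car9 had 39 UMIs in 7 of 754 fibroblasts of the sensitive library, 35.9% of them in a single cell, and 0 in the 524 of the resistant one. The sums were 1.22-fold for glycolytic enzymes and for other hypoxia genes, but as a mean over cells 3 members and with a stricter gate 5 members were past the fold.

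CD8 cells had few members past the fold. In Havcr2-negative cells 0 of 28 members were past the fold higher (6.07% of all genes were) and 0 lower (3.44% were), and the glycolytic sum was 1.23-fold (1.20 to 1.25) where the median of all genes was 1.09. In Havcr2-positive cells Hif1a was higher, at 340.2 against 199.7 CPM (1.70-fold, 1.51 to 1.93), and Ankrd37 lower, at 21.2 against 32.6 CPM (0.650-fold, 0.420 to 0.983), where 8.38% of all genes were past the fold higher and 3.24% lower. Ankrd37 was no longer past the fold with a stricter gate, with a looser mitochondrial limit or without doublet removal, and as a mean over cells 4 members were past the fold higher. Hif1a in Havcr2-negative cells stood at 275 against 193 CPM (1.42-fold), under the fold.

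CD4 cells were few in the resistant library (52 against 197) and gave 7 of 22 members past the fold higher (8.14% of all genes were) and 0 lower (6.03% were). The count higher was 4 after scaling to the median of all genes and 2 with a stricter gate or as a mean over cells. With a mitochondrial limit of 20%, which kept 97 resistant CD4 cells, it was 10. The 7 were Bnip3 (3.71-fold, from 62 and 3 UMIs, but 0.952-fold as a mean over cells), Ndrg1 (2.56), Slc2a1 (2.23), Gapdh (1.93), Ldha (1.69), Pkm (1.57) and Ddit4 (1.55). The CD4 gate of the sensitive library also held 10 of 12 fibroblast markers (summed 925 CPM) where that of the resistant library held 4 (50.3 CPM). In the 142 and 42 CD4 cells with no fibroblast marker UMI, an alternative chosen after the data had been seen, 3 members were past the fold higher and the sum of the other hypoxia genes was 1.02-fold in place of 1.21-fold, while the glycolytic sum was 1.31-fold in place of 1.41-fold. In all CD4 cells 5 of 6 cell cycle genes with enough UMIs were lower in the sensitive library, and 6 of 9 further hypoxia pathway genes were higher.

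Myeloid cells had few members past the fold, all lower in the sensitive library. In neutrophils 0 of 27 members were past the fold higher in the sensitive library (8.44% of all genes were) and 3 were lower (7.78% were): Slc2a3 at 62.6 against 133 CPM (0.470-fold, 0.263 to 0.804), Vegfa at 79.1 against 145 CPM (0.544-fold, 0.324 to 0.887) and Gpi1 at 280.1 against 455 CPM (0.615-fold, 0.470 to 0.799). The glycolytic sum was 0.878-fold (0.837 to 0.921). In macrophages 0 of 30 members were higher (6.55% of all genes were) and 1, Pfkfb4, was lower (3.27% were), at 14.8 against 27.3 CPM, and the glycolytic sum was 1.03-fold. With a stricter gate 6 members were higher in macrophages, and as a mean over cells 5 were lower in neutrophils.

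**Figure D5:**
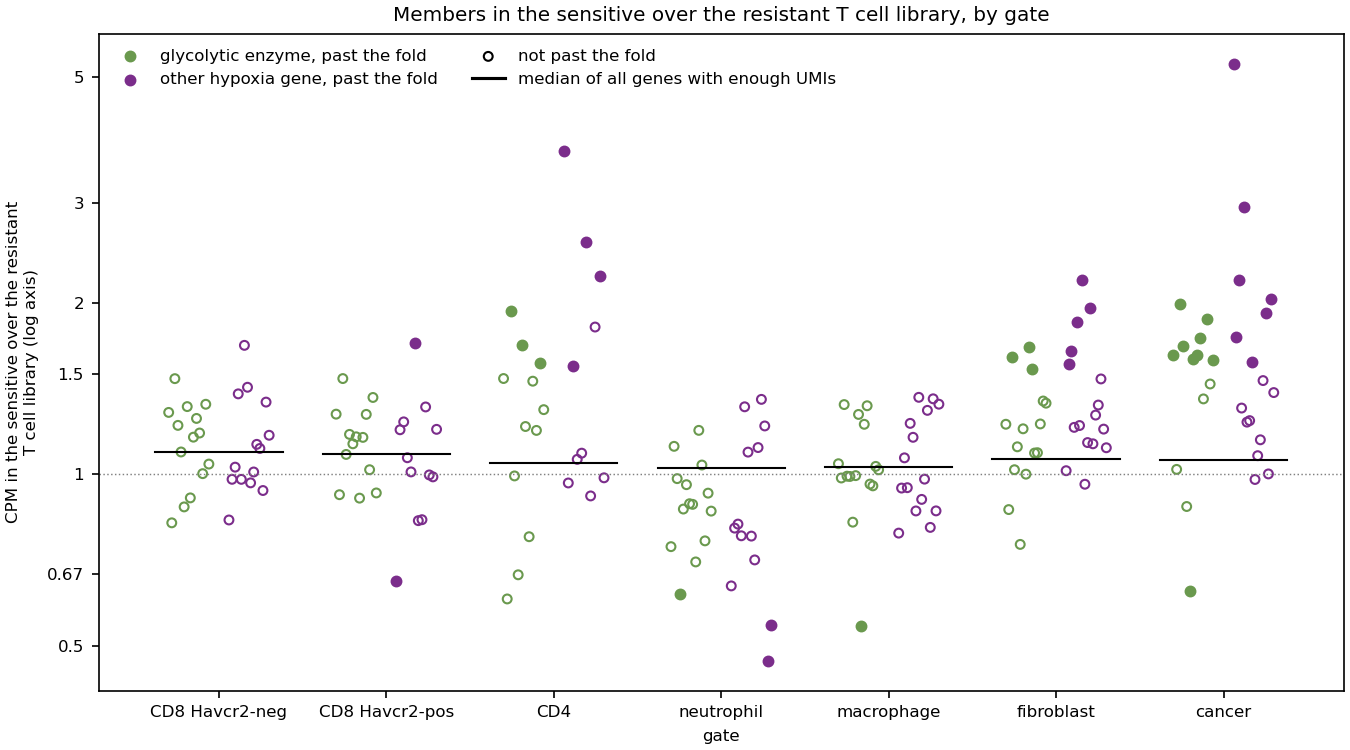
Ratio of CPM in the sensitive over the resistant T cell library (log axis) for each member with at least 50 UMIs, by gate, with glycolytic enzymes in green and other hypoxia genes in purple, filled where past the fold, and a black line at the median of all genes with enough UMIs. Filled points lie mostly above the line in cancer cells, fibroblasts and CD4 cells and below it in neutrophils.

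The whole-tumor libraries, again 1 per group and without a test, allowed ratios in neutrophils and cancer cells. The comparisons of sensitive and of resistant-labelled with control share the control library. In neutrophils of the sensitive over the control library 6 of 25 members were past the fold higher (17.4% of all genes were) and 1 was lower (8.46% were). Hk2 stood at 269 against 123 CPM (2.19-fold, 1.59 to 3.04), Ddit4 at 120.1 against 55.9 CPM (2.15-fold), P4ha1 at 120.1 against 68.5 CPM (1.75-fold), Tpi1 at 807 against 509.9 CPM (1.58-fold), Pfkp at 192 against 123 CPM (1.56-fold) and Pgam1 at 1053 against 695 CPM (1.51-fold), and Slc2a3 was lower at 51.5 against 99.1 CPM (0.520-fold). After scaling to the median of all genes, which was 1.10, 3 members were higher and 2 lower. In neutrophils of the resistant-labelled over the control library 3 of 24 were higher (11.7% of all genes were), namely Pfkl (1.79-fold), Pgam1 (1.66-fold) and Pkm (1.505-fold), and 0 were lower (4.9% were), while as a mean over cells 6 and with a stricter gate 5 were higher. Between sensitive and resistant-labelled neutrophils Hk2 (1.85-fold) and P4ha1 (2.09-fold) were higher in the sensitive library, 2 of 22 members where 7.81% of all genes were, and 0 were lower where 5.74% were. Neutrophils were 218, 131 and 291 cells in the sensitive, resistant-labelled and control library. The smaller cancer gate (34 and 22 cells) gave 2 of 22 members higher in resistant-labelled over control (8.75% of all genes were), namely Car9 at 166 against 76.7 CPM (2.17-fold, 1.42 to 3.41) and Pgk1 at 531 against 323 CPM (1.64-fold). Of the same members 2 were lower (8.58% of all genes were), namely Egln1 at 36.1 against 74.0 CPM (0.487-fold, 0.267 to 0.883) and Ddit4 at 158 against 260.4 CPM (0.608-fold). The stricter gate left 1 and 2 cancer cells in these libraries, too few for a ratio. As shares, 2 of 22 and 3 of 24 members lie close to the shares of all genes given beside them.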

How the data were processed

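The deposited files were count matrices, which the authors made with Cell Ranger (6.0.0 for the T cell and 3.0.1 for the whole-tumor libraries, mm10), with UMI counts per gene and barcode and no further normalization. The members and further gene lists were chosen with earlier results of these data known. Cells needed 500 genes and no more than 10% mitochondrial UMIs in the T cell libraries, or 200 genes and 20% in whole tumor. A doublet caller (scanpy 1.11.5) removed 112 and 159 cells of the sensitive and resistant T cell libraries. A cell was gated by the marker list of which it held the largest share, with at least 3 markers. A second list could reach no more than 0.5 of that share, and no Cd3 UMI was allowed. The lists of the gated types held 12 markers, of which 11 were found for neutrophils in whole tumor. Cells led by an endothelial, B cell or dendritic list were left out. T cells had Cd3, no leading list, and either Cd8a or Cd8b1 without Cd4, or Cd4 without Cd8a and Cd8b1. UMIs were summed per library and gate (at least 20 cells) over the 31627 shared genes and tested with edgeR 4.0.16 (R 4.3.3, filterByExpr, TMM, library as a term, 12455 genes). The code was first tested on simulated data. Ratios between libraries were computed on CPM with exact conditional binomial 95% intervals (scipy 1.17.1), which cover counting error alone. Up to 12 called members a direction were named by size of change, and the others by symbol or range. Alternatives were DESeq2 1.42.0, no TMM, no filter, at least 50 cells, a stricter gate (0.25 in place of 0.5), each library left out, no library term, no doublet removal, a 20% mitochondrial limit, means over cells, scaling to the median ratio, list sums without the most abundant member, thinning to 1000 UMIs and leaving out cycling cells. CD4 cells without fibroblast markers were added after the data had been seen. With 1 library in each group, p-values measure the spread between these libraries and gates. Depth was 537293 to 35908799 UMIs a library, and median kept cells had 1476 to 5610 UMIs.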

Additional observations from a re-analysis of the deposited data

Results flagged for a closer look

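Members past the fold in opposite directions in different gates stood out when the sensitive was set against the resistant T cell library. Gpi1, the isomerase after hexokinase, was 0.615-fold in neutrophils and 1.68-fold in cancer cells. Pfkfb4 was 0.542-fold in macrophages and 1.68-fold in fibroblasts. Ankrd37 was 0.650-fold in Havcr2-positive CD8 cells, 1.57-fold in fibroblasts and 1.74-fold in cancer cells. Each ratio compares 1 library with 1 library, and the difference between gates was not tested.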

How the results depend on the processing

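Every member called between gates kept its direction under every alternative in which it was fitted, but the counts of calls moved and the causes were not tested. Without the filter on low counts 2 members were called higher in the CD8 split by edgeR. For cancer cells against fibroblasts, leaving out 1 T cell library gave 4 to 7 members higher and 4 to 5 lower, and over all 5 libraries left out in turn 4 to 13 higher and 4 to 10 lower. For cancer against Havcr2-negative CD8 cells leaving out 1 T cell library gave 9 to 10 higher and 4 lower, and over all libraries 9 to 17 and 4 to 7. The count lower in neutrophils than in macrophages was 4 without TMM, 2 without the filter, 0 with at least 50 cells or a stricter gate, and 1 to 2 with a library left out. Library stood as the replicate block: without it, which sets whole-tumor cancer cells against gates of the T cell libraries, 8 members were higher in cancer cells than in fibroblasts, 2 were lower in neutrophils than in macrophages, and 0 were called in the CD8 split. Members past the fold lower in the sensitive T cell library, counted over gates, were 10 in place of 6 as means over cells. The stricter gate was not run for cancer cells of resistant-labelled over control, of which it left too few. Of 14 list sums whose interval left out 1, 2 crossed 1 in an alternative, as did 1 member past the fold: the other hypoxia genes in Havcr2-negative CD8 cells (0.977 after scaling to the median), Bnip3 in CD4 cells (0.952 as a mean over cells) and the glycolytic sum in macrophages (0.993 after scaling and 0.9995 as a mean over cells). Of 8 sums whose interval held 1, 6 crossed it, among them the other hypoxia genes in macrophages (0.986, and 1.08 without the most abundant member), in neutrophils of sensitive over control (1.03 and 0.991) and in cancer cells of resistant-labelled over control (1.06 and 0.963). Depth a cell was lowest in neutrophils among the gates used, with median UMIs of 1451.5 to 2348. Members under 50 UMIs were left out of ratios, which between the T cell libraries left 27 in neutrophils and 22 in CD4 cells.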
